A study of Mus musculus with 3 samples.

Results

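The genes described here encode 4 related families that cut or protect the proteins around cells: the matrix metalloproteinases (Mmp), the membrane-anchored ADAM proteins (Adam), the secreted ADAMTS proteins with thrombospondin repeats (Adamts) and the tissue inhibitors of metalloproteinases (Timp). Members were the genes whose symbol begins with one of these names followed directly by a digit and that have a probe set assigned to a single symbol. There were 65 such genes among 18193 genes in all, read by 116 probe sets. Their values were compared between 3 Affymetrix arrays, 1 per group. All cells came from A2.snail mouse embryonic stem cells, a line in which doxycycline switches on Snail, the product of Snai1 and a repressor of epithelial genes. They were differentiated as embryoid bodies, floating cell aggregates, in medium with 10% fetal calf serum and DKK1, an inhibitor of Wnt signalling, and were sorted at day 3 on the VEGF receptor Flk1, the product of Kdr. The groups were Flk1+ cells after doxycycline, added to 250 ng/mL on day 2 (Snail-induced Flk1+), Flk1- cells after the same treatment (Snail-induced Flk1-), and Flk1- cells without doxycycline (untreated Flk1-). Doxycycline-treated cells without the Snail gene and untreated Flk1+ cells were not analysed here, so Snail and doxycycline cannot be told apart, nor can Snail and the Flk1 gate in comparisons of Snail-induced Flk1+ with untreated cells.

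Metalloproteinases hold a zinc ion in their active site and are made as inactive proenzymes, which other proteases such as furin activate. Mmp and many Adamts enzymes cleave collagens, proteoglycans and other matrix proteins, while several Adam proteins act as sheddases, releasing the outer parts of membrane proteins such as growth factor precursors, Notch and cadherins. Timp proteins block the active sites. In the embryo these enzymes are known for their part in cell migration and vessel formation, and cells passing through epithelial to mesenchymal transition often make more of them.

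Each gene was read from its probe set with the highest mean, in the authors' linear intensity units. Differences were taken on the log2 scale after adding 9.53, the 20th percentile of all values, and folds are given on that scale. A value under 25.6, the 40th percentile of all values, was taken as not measured. Where the dimmer array lay under this floor, the fold is the brighter value over the floor and is written as at least that many fold. With 1 array per group there is no test, no spread and no p-value, and the number of arrays limits the precision. A gene was counted as higher or lower where the difference was at least 2-fold and the brighter array reached the floor. Levels were compared between arrays for a gene, not between genes, because probe sets differ in brightness. A lower intensity cannot tell fewer expressing cells from less RNA per cell.

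The array labels were checked on Kdr, which gave 404 in Snail-induced Flk1+, 9.73 in Snail-induced Flk1- and 10.5 in untreated Flk1- cells, as the sort requires. The Snai1 probe set gave 19.8, 13.1 and 29.1 in the same order, close to the floor or below it throughout, and so it checks nothing about the doxycycline labels. Markers of other states moved strongly between the arrays. The 12 endothelial markers summed to 9777 in Snail-induced Flk1+, 1239 in Snail-induced Flk1- and 1222 in untreated Flk1- cells. All 12 were higher in Flk1+ than in either Flk1- array, which for Kdr, counted among them, was fixed by the sort. Egfl7 made up 866 of the sum in Snail-induced Flk1- and 1007 in untreated Flk1- cells. Between these 2 arrays, 2 of the 12 were counted as higher and 0 as lower. They were Fli1 (2632, 147 and 16.8 in the same order, at least 5.76-fold) and Sox18 (1082, 30.2 and 3.33, at least 1.18-fold). The 8 epithelial markers summed to 1905, 6637 and 16545 in that order, and the 8 embryonic stem cell markers to 6173, 16613 and 15461. The 8 feeder fibroblast markers summed to 558, 879 and 547, with Postn under the floor on every array and Col1a1 too. Among them Dcn gave 58.6, 276 and 111, and Pdgfrb, also a gene of mesenchyme, gave 181, 204 and 71.3. Both were at least 2-fold higher in Snail-induced Flk1- than in untreated cells. The rest of the list was not: Lum gave 2.57, 22.1 and 33.3, Thy1 gave 87.8, 158 and 159, Col1a2 gave 132, 93.5 and 76.7, and Col6a3 gave 78.9, 107 and 90.1. The 9 blood and macrophage markers summed to 546, 395 and 552. The 10 markers of primitive and visceral endoderm summed to 1803, 714 and 629, of which Sox7, also an endothelial gene, made up 1291 in the Flk1+ array, while Afp and Ttr were under the floor on every array. Gata6 gave 152, 35.6 and 22.1 and Apob 39.7, 27.2 and 13.1, both counted as higher in Snail-induced Flk1+ than in untreated cells. With untreated cells under the floor, Gata6 was at least 5.96-fold and Apob at least 1.55-fold higher. Cubn gave 44.0, 257 and 220, lower in Flk1+. Foxa1 gave 16.0, 10.9 and 46.4, above the floor in untreated cells only, and was counted as lower on both induced arrays. The part of these shifts in cell makeup in the results below was not tested.

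Of the 65 members, 40 reached the floor on at least 1 array (61.5%, against 76.8% of all genes) and 25 did not. The median log2 difference over all 65 members was 0.13 between Snail-induced Flk1+ and untreated Flk1- cells, against 0.01 over all genes. It was 0.11 between Snail-induced Flk1- and untreated Flk1- cells (all genes 0.03), and 0.12 between Snail-induced Flk1+ and Snail-induced Flk1- cells (all genes 0.00). Over the 40 measured members the medians were larger, at 0.32, 0.18 and 0.30 in the same order of comparisons, against 0.01, 0.04 and 0.00 over all measured genes. In Snail-induced Flk1+ against untreated Flk1- cells, 9 of the 40 measured members (22.5%) were at least 2-fold higher, against 8.21% of all 13974 measured genes, and 2 (5.0%) were lower, against 6.42%. The 9 were Mmp2, Mmp9, Mmp14, Adam9, Adam10, Adam19, Adam23, Adamts1 and Adamts3, and the 2 were Adamts15 and Timp4. In Snail-induced Flk1- against untreated Flk1- cells, 3 members (7.5%) were higher, Mmp2, Adam19 and Adamts20, against 2.92% of all measured genes, and 0 were lower, against 2.0%. In Snail-induced Flk1+ against Snail-induced Flk1- cells, 3 members (7.5%) were higher, Mmp9, Adam10 and Adamts1, against 4.93%, and 1 (2.5%) was lower, Timp4, against 4.84%. These comparisons share arrays, and on the log2 scale the first is the sum of the other 2. A gene had to be bright on at least 1 array to be counted as measured, so these shares describe the measured members and not the families.

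**Figure D1:**
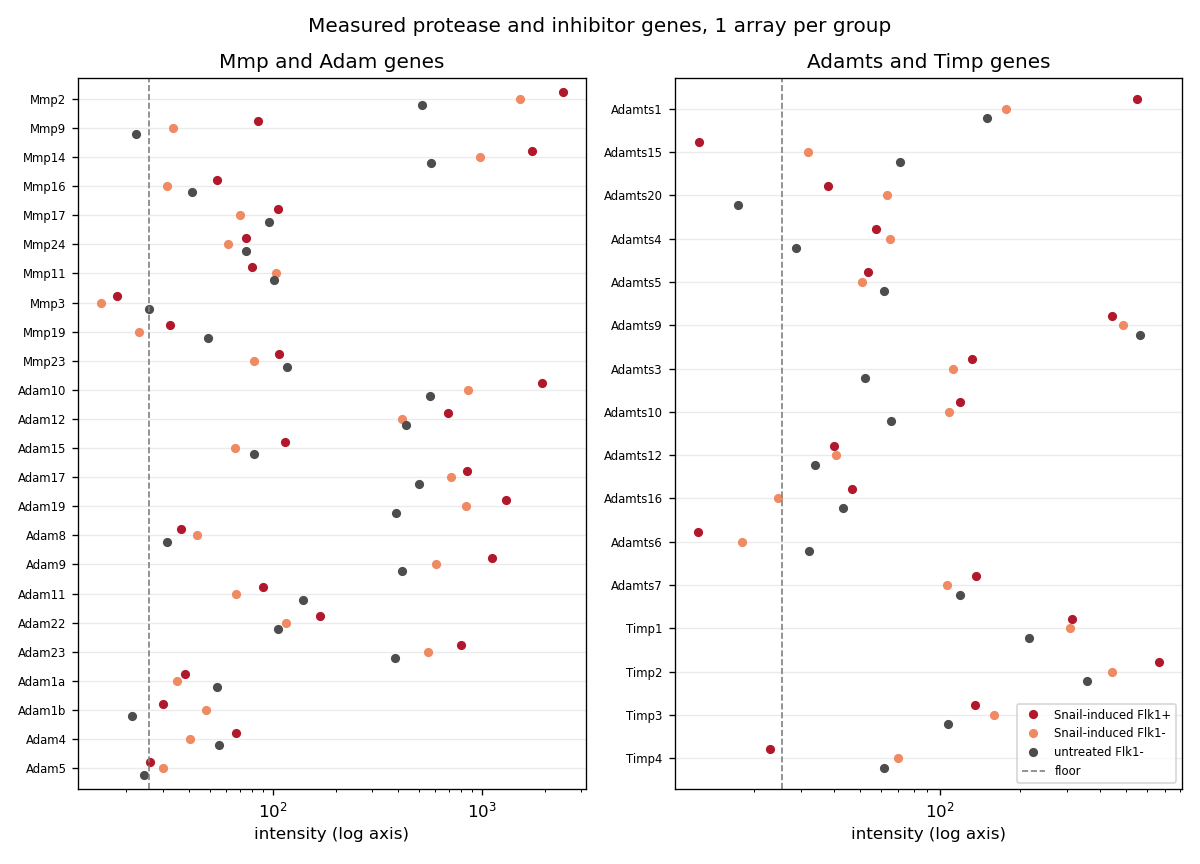
Intensity (log axis) of the 40 measured Mmp, Adam, Adamts and Timp genes in Snail-induced Flk1+ (dark red), Snail-induced Flk1- (orange) and untreated Flk1- (grey) cells, 1 point per array, with the floor of 25.6 as a dashed line. Within a row, Mmp2, Mmp14, Adam9, Adam10 and Adam19 are highest in Snail-induced Flk1+ and lowest in untreated cells, and Adamts15 has the opposite order; rows are not comparable in brightness.

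The 3 arrays stood in the order Snail-induced Flk1+ above Snail-induced Flk1- above untreated Flk1- in 14 of the 40 measured members (35.0%), against 27.0% of all measured genes. The opposite order was found in 3 members (7.5%), Adamts15, Adamts6 and Adamts9, against 22.0%. For Adamts6 both induced arrays were under the floor, so its order is not settled. The 14 were Adam9, Adam10, Adam17, Adam19, Adam22, Adam23, Adamts1, Adamts3, Adamts10, Mmp2, Mmp9, Mmp14, Timp1 and Timp2. An order counts any step, however small, and several of these steps were under 1.2-fold. The orders are those of the brightest probe sets. For Mmp9, Adam10, Adam17, Adam23, Adamts10 and Timp2, another measured probe set did not keep the rising order. For Adamts9 and Adamts6, no other measured probe set kept the falling order.

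Among the matrix metalloproteinases, only the gelatinases and the membrane-type enzyme Mmp14 were counted as different. The median log2 difference of the 10 measured Mmp genes was 0.06 between Snail-induced Flk1+ and untreated Flk1- cells. It was -0.28 between the Flk1- arrays, with 4 of 10 positive, against 7674 of all 13974 measured genes. Between the induced fractions it was 0.45, with 9 of 10 positive, against 6995 of 13974. Over the 22 measured Mmp and Adamts genes together, the medians were 0.16, -0.18 and 0.23 in the same order of comparisons. Mmp2, gelatinase A, which degrades denatured collagen and the type IV collagen of basement membranes, gave 2438 in Snail-induced Flk1+, 1527 in Snail-induced Flk1- and 518 in untreated Flk1- cells. It was 2.92-fold higher in Snail-induced Flk1- and 4.64-fold higher in Snail-induced Flk1+ than in untreated cells, and 1.59-fold higher in Flk1+ than in Snail-induced Flk1- cells. Its second probe set gave 1302, 705 and 255 in the same order, log2 differences of 1.43 and 2.31 from untreated cells against 1.54 and 2.21 for the first. Both probe sets of Mmp2 thus put most of its difference in the step between the Flk1- arrays.

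Mmp9, gelatinase B, which is known in endothelial and blood cells, gave 85.5 in Snail-induced Flk1+, 33.3 in Snail-induced Flk1- and 22.3 in untreated Flk1- cells. It was 2.22-fold higher in Flk1+ than in Snail-induced Flk1- cells and at least 3.35-fold higher than in untreated cells. Its second probe set gave 77.1, 25.1 and 27.1. Both Mmp9 probe sets were clearly above the floor on the Flk1+ array alone, where the 2 Flk1- arrays lay close to it. With the offset at the 40th percentile, Mmp9 missed 2-fold between the induced fractions.

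Mmp14, the membrane-type enzyme that cuts fibrillar collagen at the cell surface and activates the Mmp2 proenzyme together with TIMP2, gave 1744 in Snail-induced Flk1+, 987 in Snail-induced Flk1- and 570 in untreated Flk1- cells. It was 3.02-fold higher in Flk1+ cells than in untreated cells, with about equal steps of 1.76-fold and 1.72-fold. Its other probe sets gave 383, 268 and 97.2, and 109, 61.5 and 57.9, in the same order of arrays. The log2 difference between the Flk1- arrays was 1.38 in the one and 0.07 in the other. The other measured membrane-type genes moved less. Mmp16, another transmembrane collagenase, gave 54.2 in Snail-induced Flk1+, 31.2 in Snail-induced Flk1- and 41.1 in untreated Flk1- cells, and by a dimmer probe set 13.3, 27.2 and 11.7. Mmp17, held in the membrane by a lipid anchor, gave 106, 69.9 and 96.2, and Mmp24, known from the nervous system, gave 74.6, 61.4 and 74.8. By their brightest probe sets all 3 were lowest in the Snail-induced Flk1- array, by less than 2-fold.

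The remaining measured Mmp genes were not counted as different. Mmp11, a stromelysin that furin activates inside the cell, gave 79.5 in Snail-induced Flk1+, 104 in Snail-induced Flk1- and 102 in untreated Flk1- cells. Mmp23 gave 107, 81.4 and 117, and Mmp19, a secreted enzyme of basement membranes, gave 32.2, 22.9 and 48.9, at least 1.91-fold lower in Snail-induced Flk1- than in untreated cells. Each of these genes had its lowest value on an induced array, unlike Mmp2 and Mmp14.

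The secreted collagenases were under the floor on every array, as were most of their neighbours. In the RefSeq gene table of the GRCm38.p6 assembly, 10 Mmp genes follow each other with no other protein-coding gene between them: Mmp13, Mmp12, Mmp1b, Mmp3, Mmp1a, Mmp10, Mmp8, Mmp27, Mmp20 and Mmp7. Of the 9 with a probe set of their own, 8 lay under the floor on every array, and Mmp3 reached it only in untreated cells (18.0 in Snail-induced Flk1+, 15.1 in Snail-induced Flk1- and 25.7 in untreated Flk1- cells). Among the collagenases, which start the cleavage of fibrillar collagen, Mmp13 gave 3.66, 6.71 and 9.99, Mmp8 gave 5.90, 11.8 and 7.77, and Mmp1a gave 21.0, 3.01 and 1 in that order of arrays. Values under the floor have no order, so no difference is read from them.

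The proximal promoters of this run share a feature that the choice of members did not use. The sequence TGACTCA, or TGAGTCA on the other strand, is the binding element of AP-1, the Jun and Fos transcription factors, and is known from collagenase and stromelysin promoters in several species. In RefSeq promoter windows (GRCm38.p6, 250 bases before to 50 after each start site), it was found in 7 of 12 windows of the run (58.3%), in 7 different genes, against 3 of 43 windows of the other family genes (6.98%) and 5.2% of all 32851 windows. All 7 matches lay within 93 bases upstream of the start site. The median GC content of the run's windows was 41.7%, against 64.0% over 26 windows of measured members and 42.8% over 16 windows of members under the floor. Those 16 include the run's own windows other than those of Mmp3 and Mmp27, so they are not a separate set. The letters describe these windows only, and binding was not measured here. The 140 bases before the start are shown for these 7 genes, 5′ to 3′ on the gene's strand, with the element in capitals, because these genes of the run share it. Mmp12 and Mmp7 each had 2 annotated starts, and the window of the start not shown held no AP-1 element. Of the 7 genes, Mmp3 alone reached the floor on an array.
Mmp13, chr9:7272374-7272513, plus strand: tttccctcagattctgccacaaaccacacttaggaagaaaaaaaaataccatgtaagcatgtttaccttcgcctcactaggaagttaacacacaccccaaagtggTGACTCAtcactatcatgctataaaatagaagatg
Mmp12, chr9:7347234-7347373, plus strand: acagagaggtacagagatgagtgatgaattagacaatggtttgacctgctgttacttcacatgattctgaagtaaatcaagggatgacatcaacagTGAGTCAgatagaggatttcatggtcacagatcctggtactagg
Mmp1b, chr9:7388027-7388166, minus strand: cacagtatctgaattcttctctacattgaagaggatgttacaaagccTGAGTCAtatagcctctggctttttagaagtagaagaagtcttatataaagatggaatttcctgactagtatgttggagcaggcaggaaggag
Mmp3, chr9:7445682-7445821, plus strand: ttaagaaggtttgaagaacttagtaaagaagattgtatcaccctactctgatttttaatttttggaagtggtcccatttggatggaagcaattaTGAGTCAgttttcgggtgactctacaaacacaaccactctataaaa
Mmp1a, chr9:7464001-7464140, plus strand: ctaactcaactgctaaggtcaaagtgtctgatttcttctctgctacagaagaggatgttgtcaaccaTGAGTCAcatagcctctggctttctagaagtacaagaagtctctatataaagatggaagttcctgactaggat
Mmp10, chr9:7502202-7502341, plus strand: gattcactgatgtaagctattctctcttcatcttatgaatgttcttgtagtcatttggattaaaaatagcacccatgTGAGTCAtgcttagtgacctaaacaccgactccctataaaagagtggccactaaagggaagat
Mmp7, chr9:7691950-7692089, plus strand: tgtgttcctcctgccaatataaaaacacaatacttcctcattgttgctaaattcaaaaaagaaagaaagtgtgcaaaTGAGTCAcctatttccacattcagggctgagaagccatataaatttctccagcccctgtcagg
For contrast, the same stretch is shown for Mmp14 and for 1 of 3 annotated starts of Adam19, both genes with at least 2-fold differences. The Mmp14 stretch held neither the AP-1 element nor the E-box CAGGTG that Snail proteins bind, which reads CACCTG on the other strand, and no letter is in capitals. The Adam19 stretch held an E-box overlapping an AP-1 element, both in capitals, within 135 bases of the start. The same stretches of the other Adam19 starts held neither, although 1 of them had an E-box further out, 191 to 186 bases upstream.
Mmp14, chr14:54431458-54431597, plus strand: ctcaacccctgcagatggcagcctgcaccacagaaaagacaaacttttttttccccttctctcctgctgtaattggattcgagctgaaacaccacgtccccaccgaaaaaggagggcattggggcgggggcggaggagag
Adam19, chr11:46055844-46055983, plus strand: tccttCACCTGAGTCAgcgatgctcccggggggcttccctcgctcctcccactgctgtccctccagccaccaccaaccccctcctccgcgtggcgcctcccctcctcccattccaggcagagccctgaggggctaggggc
The E-box was found in 11 of 55 family windows (20%), against 20.2% of all windows, so its share in the families was near that of promoters in general. Windows were listed for 37 of the 65 members.

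Among the Adam sheddases, 7 of 9 genes were measured. By their brightest probe sets all 7 were brighter in Snail-induced Flk1+ than in untreated Flk1- cells, 3 of them by at least 2-fold. Of all measured genes, 7177 of 13974 were brighter in that comparison and 8.21% were at least 2-fold higher. A dimmer probe set of Adam15 went the other way, and Adam8 was near the floor. The median log2 difference of the 7 was 0.76, against 0.01 for all measured genes. It was 0.51 between Snail-induced Flk1- and untreated Flk1- cells and 0.71 between Snail-induced Flk1+ and Snail-induced Flk1- cells, and these medians stayed above 0.4 with quantile normalisation or median centring of the arrays. Adam10, the main sheddase of Notch receptors and of E-cadherin and VE-cadherin, gave 1942 in Snail-induced Flk1+, 858 in Snail-induced Flk1- and 568 in untreated Flk1- cells. It was 2.25-fold higher in Flk1+ than in Snail-induced Flk1- cells and 3.38-fold higher than in untreated cells. A second Adam10 probe set gave 382, 200 and 129, while another gave 191, 144 and 168, with a log2 difference of only 0.18 from untreated cells. The highest value was on the Flk1+ array for each of these Adam10 probe sets, but with the mean of all its probe sets Adam10 missed 2-fold in both comparisons. That mean took in a further probe set under the floor on every array, at 4.2, 1 and 3.33.

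Adam19, a sheddase of neuregulin that the heart needs for its valves and septa, gave 1313 in Snail-induced Flk1+, 839 in Snail-induced Flk1- and 388 in untreated Flk1- cells. It was 2.14-fold higher in Snail-induced Flk1- and 3.33-fold higher in Snail-induced Flk1+ than in untreated cells, and its second probe set gave 158, 107 and 62.0. With median centring or the mean of its probe sets, its difference between the Flk1- arrays was under 2-fold. Adam9, a broadly expressed sheddase, gave 1120, 604 and 418 in the same order of arrays, 2.64-fold higher in Flk1+ than in untreated cells. In Adam9 and Adam10 the larger step lay between the Snail-induced Flk1+ and Flk1- arrays, and in Adam19 between the Flk1- arrays.

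Adam17, which releases TNF and many EGF receptor ligands, gave 852 in Snail-induced Flk1+, 715 in Snail-induced Flk1- and 500 in untreated Flk1- cells, 1.69-fold apart at most. Its other probe sets gave 395, 317 and 251, and 203, 244 and 177. Untreated cells were lowest in each of the 3. Adam12, known from mesenchyme and muscle, gave 690, 418 and 436 by its brightest probe set, 1.64-fold apart between the induced fractions, but 68.0, 1.47 and 2.99 by its other one. That second reading put Adam12 above the floor on the Flk1+ array only, and which transcripts each probe set reads is not known here. Adam15, which endothelium expresses, gave 115 in Snail-induced Flk1+, 65.9 in Snail-induced Flk1- and 81.2 in untreated Flk1- cells. Its probe set bears the suffix for possible cross-hybridisation, and its other measured probe sets gave 41.1, 17.2 and 19.8, and 24.3, 17.0 and 28.4. Adam8, known from white blood cells, gave 36.4, 43.5 and 31.4, near the floor on every array, and Adam28 and Adam33 were under it.

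**Figure D2:**
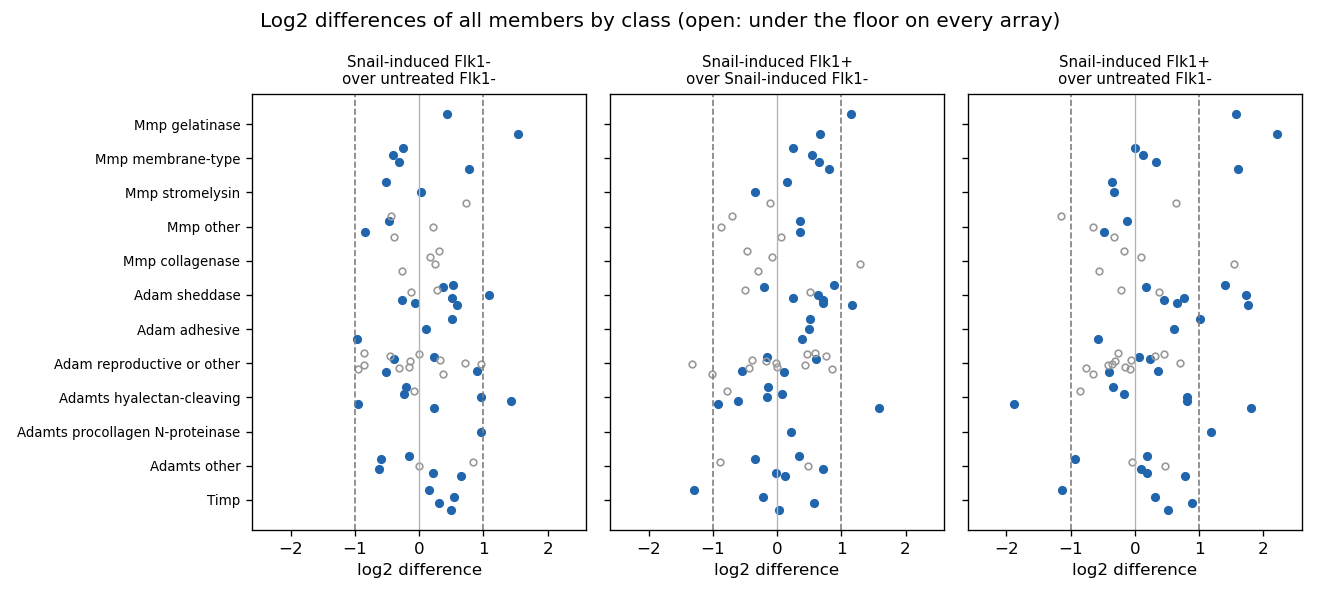
Log2 difference (horizontal axis) of each of the 65 members in the 3 comparisons, grouped by class; filled points are measured members, open points members under the floor on every array, and dashed lines mark 2-fold. The measured Adam sheddases lie right of 0 in Snail-induced Flk1+ over untreated Flk1- cells, with medians of 0.76 there and 0.51 between the Flk1- arrays, as do both gelatinases, while the adhesive, hyalectan-cleaving and Timp classes hold values on both sides.

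The adhesive Adam proteins Adam11, Adam22 and Adam23 lack protease activity and act as binding proteins, mainly in neurons. Adam23 gave 793 in Snail-induced Flk1+, 554 in Snail-induced Flk1- and 386 in untreated Flk1- cells, 2.03-fold higher in Flk1+ than in untreated cells. Its other measured probe sets ran the other way, at 228, 256 and 259 and at 21.4, 28.4 and 29.1, so Adam23 has no settled direction. Adam22 gave 168, 116 and 107. Adam11 gave 90.5 in Snail-induced Flk1+, 67.1 in Snail-induced Flk1- and 139.9 in untreated Flk1- cells, 1.95-fold lower in Snail-induced Flk1- than in untreated cells, and it passed 2-fold with quantile normalisation or median centring.

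The class of 16 Adam genes known mainly from testis and sperm, or of other roles, was mostly not measured. Under the floor on every array were 12 of the 16, with values between 1 and 24.0, against 4219 of all 18193 genes. The 4 of the class that reached the floor were not counted as different. Adam4 gave 66.7 in Snail-induced Flk1+, 40.3 in Snail-induced Flk1- and 55.6 in untreated Flk1- cells. Adam1a gave 38.3, 34.9 and 54.0, Adam1b gave 30.0, 48.1 and 21.2 (by a second probe set 30.4, 16.1 and 19.1), and Adam5 gave 25.9, 30.0 and 24.3. Adam1a and Adam1b are close relatives that their probe sets may not tell apart, which leaves both levels uncertain.

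Among the Adamts genes, which cut hyalectans (versican, aggrecan and their relatives) or process procollagens, the differences went both ways. Adamts1, a versican-cleaving enzyme that endothelial cells express, gave 551 in Snail-induced Flk1+, 178 in Snail-induced Flk1- and 150 in untreated Flk1- cells. It was 3.00-fold higher in Flk1+ than in Snail-induced Flk1- cells and 3.51-fold higher than in untreated cells, while the 2 Flk1- arrays were 1.17-fold apart. Adamts1 thus stood high on the Flk1+ array and was alike, within 1.2-fold, on the others. Adamts15, another hyalectan-cleaving enzyme, gave 12.4 in Snail-induced Flk1+, 32.1 in Snail-induced Flk1- and 71.0 in untreated Flk1- cells, at least 2.78-fold lower in Flk1+ than in untreated cells. Adamts20, known in mice for pigment cell survival, gave 38.0, 63.1 and 17.5, at least 2.47-fold higher in Snail-induced Flk1- than in untreated cells. Neither Adamts15 nor Adamts20 had a second probe set, and neither call held with the floor at the 60th percentile.

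Adamts9, an enzyme of versican turnover in the mouse embryo, gave 444 in Snail-induced Flk1+, 490 in Snail-induced Flk1- and 568 in untreated Flk1- cells, and its other measured probe sets gave 71.0, 119 and 58.3, and 118, 117 and 127. Adamts4, known as an aggrecanase, gave 57.6, 64.9 and 28.8, and Adamts5, the other main aggrecanase, gave 54.0, 50.9 and 62.0. Adamts4 was 1.94-fold higher in Snail-induced Flk1- than in untreated cells and missed the 2-fold line. Adamts3, which removes the N-propeptide of procollagen and activates VEGF-C, gave 132 in Snail-induced Flk1+, 112 in Snail-induced Flk1- and 52.6 in untreated Flk1- cells. It was 2.28-fold higher in Flk1+ and 1.95-fold higher in Snail-induced Flk1- than in untreated cells, and its other probe set was under the floor. With the mean of both, Adamts3 missed 2-fold.

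The other Adamts genes differed by less than 2-fold by their brightest probe sets. Adamts10, which binds fibrillin microfibrils, gave 119 in Snail-induced Flk1+, 109 in Snail-induced Flk1- and 65.6 in untreated Flk1- cells, and by a dimmer probe set 37.4, 40.2 and 25.4. Adamts7, known for cleaving cartilage oligomeric matrix protein, gave 137, 106 and 120, and Adamts12, its close relative, gave 40.1, 40.7 and 33.9. Adamts16 gave 46.8, 24.7 and 43.3, and by a second probe set 34.2, 15.6 and 13.4, so the probe sets differ on untreated cells. Adamts6 gave 12.3, 18.2 and 32.4, above the floor in untreated cells only. A second Adamts6 probe set gave 13.5, 26.2 and 7.11, above the floor in Snail-induced Flk1- cells only, and Adamts6 has no settled direction. Adamts8, Adamts18 and Adamts19 were under the floor on every array.

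The 4 inhibitors were all measured. Timp1, a secreted inhibitor of many Mmp enzymes, gave 315 in Snail-induced Flk1+, 310 in Snail-induced Flk1- and 217 in untreated Flk1- cells. Timp2, which blocks Mmp2 and also takes part in its activation by MMP14, gave 667, 443 and 357, 1.85-fold higher in Flk1+ than in untreated cells. Of its 4 other measured probe sets, those at 219, 120 and 89.8, at 152, 101 and 46.2, and at 68.3, 34.2 and 30.0 had the same order of arrays, and the one at 93.8, 74.1 and 114 did not. Timp3, which binds to the matrix and inhibits Adam17 and several Adamts enzymes, gave 136, 161 and 108. Its other measured probe sets gave 87.8, 107 and 93.9, 53.6, 59.97 and 71.8, and 28.6, 31.7 and 25.5, so Timp3 has no settled order of arrays. Timp1 was lowest in untreated cells, and neither Timp1 nor Timp3 was counted as different.

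Timp4 was the inhibitor that was lower with Flk1. It gave 23.0 in Snail-induced Flk1+, 69.9 in Snail-induced Flk1- and 61.7 in untreated Flk1- cells, at least 2.73-fold lower in Flk1+ than in Snail-induced Flk1- cells and at least 2.42-fold lower than in untreated cells. Its second probe set gave 14.9, 16.6 and 35.7, under the floor on both induced arrays, and thus differed in where the step lay. Timp4 no longer passed 2-fold with the offset or the floor at a higher percentile, nor, between the induced fractions, with the mean of its probe sets.

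**Figure D3:**
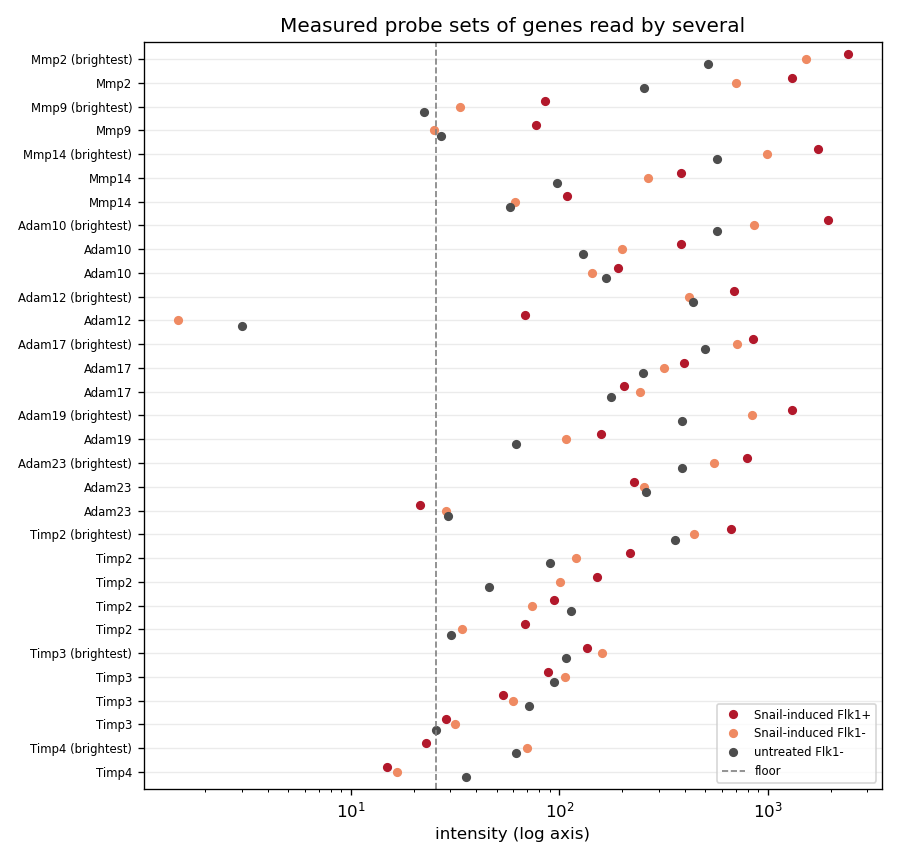
Intensity (log axis) in each measured probe set of 11 member genes read by several, with Snail-induced Flk1+ in dark red, Snail-induced Flk1- in orange, untreated Flk1- in grey and the floor of 25.6 dashed. The probe sets of Mmp2, Mmp14 and Adam19 keep 1 order of arrays, whereas those of Adam23 and Timp4 differ.

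Where a called gene had another measured probe set, that probe set could be set beside the first, although both read the same RNA and do not replace a replicate. Of the 11 members counted in Snail-induced Flk1+ against untreated Flk1- cells, 7 had such probe sets, 10 in all, and 8 of the 10 had the same sign and 5 were past 2-fold. The 2 with the opposite sign were those of Adam23. Between the Flk1- arrays, 2 of 2 had the same sign, and between the induced fractions 3 of 3 had.

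Genes that act on these enzymes, their relatives and the hyalectan substrates were read from a list of 37 genes, of which 35 had a probe set and 29 were measured. In Snail-induced Flk1+ against untreated Flk1- cells, 9 of the 29 were at least 2-fold higher, against 8.21% of all measured genes, and 2 lower, against 6.42%. Between the induced fractions 6 were higher, against 4.93%, and 2 lower, against 4.84%. Between the Flk1- arrays 3 were higher, against 2.92%, and 2 lower, against 2.0%. Rhbdf1, the iRhom protein that carries Adam17 to the cell surface, gave 1392 in Snail-induced Flk1+, 367 in Snail-induced Flk1- and 250.4 in untreated Flk1- cells, 3.72-fold higher in Flk1+ than in Snail-induced Flk1- cells. Rhbdf2, its relative, gave 29.0, 61.9 and 64.9, and so stood the other way, by less than 2-fold. Tspan14, a tetraspanin that guides Adam10 through the secretory pathway, gave 996, 577 and 454, 2.17-fold higher in Flk1+ than in untreated cells. Tspan33, of the same group, gave 23.5, 85.9 and 171, at least 6.69-fold lower, by a probe set with the suffix for possible cross-hybridisation. Of its 3 other measured probe sets, 2 were lowest on the Flk1+ array too, and the one at 25.8, 19.2 and 49.9 was not. Of the 6 listed tetraspanins that partner Adam10, Tspan14 alone was highest on the Flk1+ array, and 4 were lowest on it. Besides Tspan33 these were Tspan5 (226 in Snail-induced Flk1+, 327 in Snail-induced Flk1- and 370 in untreated Flk1- cells), Tspan15 (66.0, 78.9 and 82.4) and Tspan17 (204, 325 and 250.4), none of the 3 by 2-fold.

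Reck, a membrane protein that inhibits several Mmp enzymes and is needed for vessel formation, gave 613 in Snail-induced Flk1+, 302 in Snail-induced Flk1- and 211 in untreated Flk1- cells, 2.00-fold and 2.83-fold higher in Flk1+ than in the others. Bsg, an inducer of Mmp expression, gave 2716, 3080 and 2519. Furin, the convertase that activates proenzymes such as those of Mmp14, Adam10 and many Adamts proteins, gave 961 in Snail-induced Flk1+, 183 in Snail-induced Flk1- and 597 in untreated Flk1- cells. Its single probe set was 3.15-fold lower in Snail-induced Flk1- than in untreated cells and 5.03-fold higher in Flk1+ than in Snail-induced Flk1- cells, so the Snail-induced Flk1- array stood alone. Pcsk5, another convertase, gave 109, 66.8 and 33.1, 2.77-fold higher in Flk1+ than in untreated cells, although 2 of its 4 other measured probe sets were highest in untreated cells. Plat, the tissue plasminogen activator, gave 95.7, 62.7 and 26.0, 2.96-fold higher in Flk1+ and 2.03-fold higher in Snail-induced Flk1- than in untreated cells. A second Plat probe set gave 48.5, 26.2 and 26.1, with no such difference between the Flk1- arrays.

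Among the relatives, Bmp1, the procollagen C-proteinase, gave 380 in Snail-induced Flk1+, 124 in Snail-induced Flk1- and 80.9 in untreated Flk1- cells, 4.31-fold higher in Flk1+ than in untreated cells, and by a dimmer probe set 36.3, 21.9 and 2.49. Tll1, another protease of its kind, gave 29.5, 9.76 and 10.8, above the floor in Flk1+ cells only. Thsd4, an Adamts-like protein of fibrillin microfibrils, gave 222, 15.7 and 5.90, at least 8.67-fold higher in Flk1+ than in either Flk1- array. Adamtsl3 gave 56.5, 23.6 and 18.8, at least 2.21-fold higher in Flk1+ than in untreated cells. Adamtsl1 gave 25.5, 38.7 and 14.2, at least 1.51-fold higher in Snail-induced Flk1- than in untreated cells. Adamtsl4 gave 42.5, 19.7 and 65.8, at least 2.57-fold lower in the same comparison.

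Of the hyalectan substrates, Vcan, which encodes versican, gave 525 in Snail-induced Flk1+, 998 in Snail-induced Flk1- and 236 in untreated Flk1- cells, 4.10-fold higher in Snail-induced Flk1- than in untreated cells and 1.89-fold lower in Flk1+ than in Snail-induced Flk1- cells. Its other measured probe sets gave 161, 273 and 66.6, and 87.0, 159 and 30.5, the same order. Versican RNA was therefore highest on the Snail-induced Flk1- array. The hyalectan-cleaving Adamts genes had no common order beside it, by their brightest probe sets. Adamts1 was highest on the Flk1+ array, Adamts4 and Adamts20 on the Snail-induced Flk1- array, and Adamts5, Adamts9 and Adamts15 on the untreated array. Ncan, which encodes the neural hyalectan neurocan, gave 35.5, 117 and 128, 2.82-fold lower in Flk1+ than in Snail-induced Flk1- cells, and its other probe sets, at 44.0, 103 and 106 and at 14.4, 33.5 and 21.2, were lowest in Flk1+ too. Acan and Bcan were not counted as different.

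**Figure D4:**
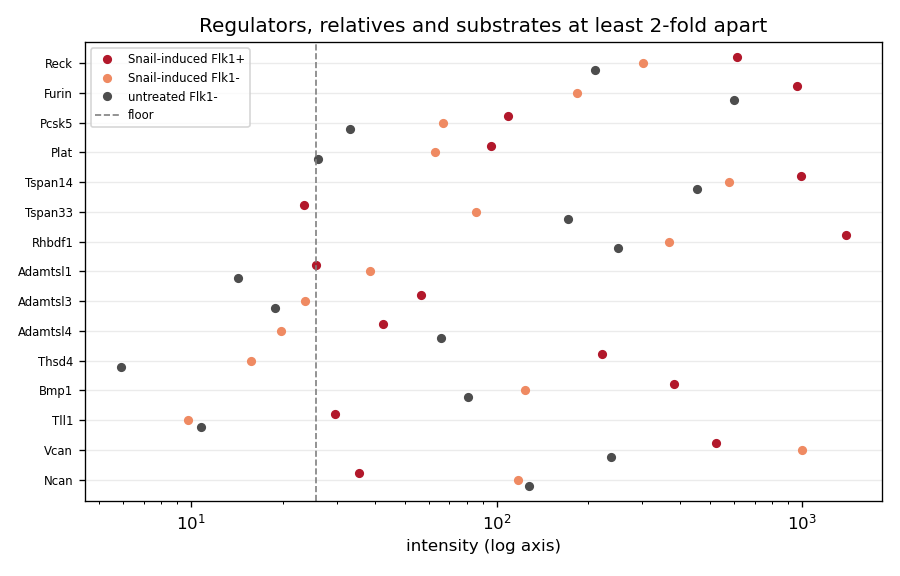
Intensity (log axis) of the 15 listed regulators, relatives and substrates at least 2-fold apart in a comparison, in Snail-induced Flk1+ (dark red), Snail-induced Flk1- (orange) and untreated Flk1- (grey) cells, with the floor of 25.6 dashed. Rhbdf1, Bmp1 and Thsd4 stand out on the Flk1+ array, Vcan is highest and Furin lowest on the Snail-induced Flk1- array, and Tspan33 and Ncan are lowest on the Flk1+ array.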

How the data were processed

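Each of the 3 arrays was hybridised with biotinylated cRNA made from 2 ug total RNA by the standard Affymetrix procedure, per the labels' protocols. The values deposited by the authors are linear intensities, 1 per probe set and array; their summary method, software and scaling were not given in the sources used here. Array medians were 44.6 (Snail-induced Flk1+), 42.4 (Snail-induced Flk1-) and 42.7 (untreated Flk1-), and the columns were used as deposited. Of 45037 probe sets, 34945 had 1 symbol in the platform annotation, 932 several and 9160 none; old symbols were replaced through their Entrez IDs with those of RefSeq's mouse gene table (GRCm38.p6). Of 80 family genes in that table, 15 lacked their own probe set and are not analysed here.

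Members named with values were all measured members at least 2-fold apart in a comparison, all Timp genes, and the up to 4 brightest other measured members of each class, with the listed regulators, relatives and substrates at least 2-fold apart. Adamts6, Mmp13, Mmp8 and Mmp1a, and the listed genes Bsg, Rhbdf2, Tspan5, Tspan15 and Tspan17, fall outside this rule and were chosen after their values were seen. The single markers given with values, apart from Kdr and Snai1, fall outside it too. Members, classes and lists, drawn from textbook knowledge, were chosen with earlier results of these data known. Genes were called with Python 3.11.15, numpy 2.4.6 and pandas 2.3.3, by a procedure tested on simulated data. Alternatives were quantile normalisation, median centring, the mean of all probe sets, leaving out probe sets with suffixes for several transcripts, other floors and offsets, and a 3-fold threshold. Whether the arrays stem from separate cultures is not stated beyond the treatment, and intensities have no replicate.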

Additional observations from a re-analysis of the deposited data

How the results depend on the processing

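No called difference of a named member changed sign under any of the 8 alternatives that apply to single genes. A change of floor or offset cannot turn a sign, so those alternatives were no check of direction. Of the 18 called differences, 17 stayed past 2-fold with quantile normalisation, 16 with median centring and 12 with the mean of all probe sets. That mean also took in probe sets under the floor. With the floor at the 60th percentile 14 stayed, and with the offset at the 40th percentile 14. All 18 stayed with no floor, with no offset or without multiple-transcript probe sets. Removing the floor or the offset cannot take a call away, so these results were fixed in advance. Leaving out multiple-transcript probe sets changed the reading of Mmp2 alone among the called members. Adam23 was lost with either normalisation, and Adam12 came past 2-fold with the mean of its probe sets. The 5 members past 3-fold between Snail-induced Flk1+ and untreated Flk1- cells were Adam10, Adam19, Adamts1, Mmp14 and Mmp2, against 9 past 2-fold; 1 was lower past 3-fold, Adamts15, against 2. Between the Flk1- arrays, 0 members were past 3-fold higher, and between the induced fractions 0 higher and 0 lower.

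With no offset, 6 members were higher and 3 lower in Snail-induced Flk1- than in untreated cells, against 3 and 0; the lower count was 1 with quantile normalisation (Adam11) and 2 with median centring (Adam11 and Adamts15). Lower members between the induced fractions, 1 as reported, numbered 3 with no floor, 2 with no offset, and 0 with the mean of all probe sets, a floor at the 60th percentile or an offset at the 40th. Lower members between Snail-induced Flk1+ and untreated Flk1- cells, 2 as reported, numbered 0 with the floor at the 60th percentile and 1 with the offset at the 40th. Higher calls made up 3 of 3 calls between the Flk1- arrays as deposited, 3 of 4 with quantile normalisation and 2 of 4 with median centring. Class medians were recomputed with quantile normalisation and median centring as a choice made after seeing the data. No paired analysis was possible because each group has 1 array. The calls on Mmp9, Adamts15, Adamts20 and Timp4 rest on at least 1 value under the floor or close to it.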
